A study of Mus musculus with 2 samples.

Results

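The keratin genes of epithelia described here are Krt7, Krt8, Krt18, Krt19, Krt80, Krt17, Krt42, Krt20, Krt5 and Krt14, 10 of the 43629 genes counted in each library and 10 of the 53 protein-coding keratin genes among them. They were chosen by gene symbol, with the measured counts of these libraries and the study's own results already known, so their levels and ratios are given as a description, without a test. RNA sequencing was performed on polyA RNA of Dicer_KO mESCs, mouse embryonic stem cells of blastocyst origin and 129/Ola background whose Dicer1 gene carries a CRISPR/Cas9 deletion. The cells descend from the E14TG2a line, were sorted as single cells after transfection and so grew as clones, and were routinely kept in serum with LIF. The series holds 2 libraries of a single group, Dicer_KO replicate 1 at passage 7 and Dicer_KO replicate 2 at passage 4. The labels name neither the deletion nor the clone, so line, passage and library cannot be told apart. Libraries of WT mESCs were not analysed here.

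Keratins are the intermediate filament proteins of epithelial cells. A filament is built from pairs of a type I and a type II chain, and chains without a partner are degraded. Krt8 (type II) and Krt18 (type I) form the earliest pair of the embryo and appear in the trophectoderm of the blastocyst, the outer layer from which the placenta derives. Krt7 and Krt19 join them in simple epithelia, whereas Krt5 and Krt14 are the pair of the basal layer of stratified epithelia. The type II genes lie in a cluster on mouse chromosome 15 together with Krt18, and the other type I genes lie in a cluster on chromosome 11. Undifferentiated mESCs are not an epithelial tissue, although they are joined by E-cadherin.

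Totals of counts on genes were 41710122 in replicate 1 and 41566184 in replicate 2, so 3 counts correspond to 0.0719 and 0.0722 CPM, counts scaled to the same library total in each library. The core pluripotency genes were abundant in both libraries, with 39069 and 43025 counts of Pou5f1 and 26499 and 21353 counts of Sox2. Dicer1, the deleted gene, still had 1343 counts in replicate 1 and 1510 in replicate 2. A count summed over the whole gene includes the exons outside a deletion, so without a WT library it does not test the genotype. The study itself checked its mutants by genomic PCR, by immunoblot for DICER and by northern blot for mature miRNAs. It also reported loss of Dicer mRNA in both mutants from RNA sequencing, which the whole-gene counts given here cannot show. The libraries differed from each other in many genes. Of the 17788 genes whose mean count reached 10 (the genes compared below), 14.2% were more than 2-fold higher in replicate 1 and 7.14% more than 2-fold higher in replicate 2, on the scale of counts scaled by the TMM method of edgeR with a pseudocount of 1. Intervals below are 95% intervals and cover counting error only, because each passage is represented by 1 library.

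The promoters of the genes on which the results turn are shown because Krt8 and Krt18, as neighbours, and Krt7 and Krt20, with ratios far above most genes, were all higher in replicate 1. Each runs from 250 bases before to 50 bases after the start annotated by RefSeq on GRCm38.p6 and is written along the strand of the gene, with motif matches in capitals. Krt8 spans chr15:102004293-102004592 (minus strand), Krt18 chr15:102027966-102028265 (plus strand), Krt7 chr15:101412153-101412452 (plus strand) and Krt20 chr11:99438104-99438403 (minus strand).
Krt8: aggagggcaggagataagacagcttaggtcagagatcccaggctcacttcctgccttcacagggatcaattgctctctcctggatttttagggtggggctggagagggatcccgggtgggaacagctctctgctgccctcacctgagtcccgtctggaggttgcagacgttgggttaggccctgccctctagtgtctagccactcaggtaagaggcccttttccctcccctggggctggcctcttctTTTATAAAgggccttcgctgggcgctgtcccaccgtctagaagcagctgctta
Krt18: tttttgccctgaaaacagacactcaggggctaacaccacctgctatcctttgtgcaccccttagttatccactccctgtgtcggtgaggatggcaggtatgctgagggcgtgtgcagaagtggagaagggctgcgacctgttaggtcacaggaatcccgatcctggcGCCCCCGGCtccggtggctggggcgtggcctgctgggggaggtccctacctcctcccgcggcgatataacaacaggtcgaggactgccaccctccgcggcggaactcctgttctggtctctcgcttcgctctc
Krt7: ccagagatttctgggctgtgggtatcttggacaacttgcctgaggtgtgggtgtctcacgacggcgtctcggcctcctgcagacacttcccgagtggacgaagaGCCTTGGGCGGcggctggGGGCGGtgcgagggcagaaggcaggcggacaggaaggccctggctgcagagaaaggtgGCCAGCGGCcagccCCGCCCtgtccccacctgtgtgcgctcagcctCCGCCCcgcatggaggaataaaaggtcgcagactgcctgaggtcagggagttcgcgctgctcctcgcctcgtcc
Krt20: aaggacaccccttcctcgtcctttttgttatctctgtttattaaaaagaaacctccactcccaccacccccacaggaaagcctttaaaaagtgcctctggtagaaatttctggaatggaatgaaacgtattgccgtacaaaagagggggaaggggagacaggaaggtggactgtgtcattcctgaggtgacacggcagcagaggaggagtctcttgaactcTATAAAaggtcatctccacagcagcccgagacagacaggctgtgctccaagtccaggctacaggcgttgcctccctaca
The motifs searched on both strands were the TATA box TATAAA, the GC box GGGCGG, the AP-1 motif TGANTCA, the AP-2 motif GCCNNNGGC and the GRHL motif AACNGGTT. Windows were available for 7 of the 10 genes, and those of Krt19, Krt80 and Krt17 were not used here. The window of Krt14 starts at a noncoding transcript, 1518 bases inside the gene from its coding transcript start, and held none of these motifs. The start used for Krt7 lies 1360 bases inside the gene, 1 base from the start of a coding transcript. That used for Krt8 lies 140 bases inside the gene. The TATA box was found in 3 of the 7 (Krt8, Krt42 and Krt20), against 13.6% of all 32851 promoters. In Krt8 its matches on the 2 strands overlap. Only the match of Krt20 lies before the start used, whereas that of Krt8 spans the start and that of Krt42 lies after it. The AP-2 motif was also found in 3 of the 7 (Krt7, Krt18 and Krt42), against 16.6% of all promoters. The GC box was found in Krt7 alone of the 7, with 4 matches, against 35.7% of all promoters. In Krt7, a GC box and an AP-2 match overlap. The AP-1 motif (7.81% of all promoters) and the GRHL motif (2.09%) had no match in these 7 windows. Krt8 and Krt18 thus shared none of the 5 motifs in this window.

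Mature miRNAs need DICER, and the study probed miR-295 and miR-16 to follow their loss. Their sequences are shown with the seed, bases 2 to 8, in capitals, together with miR-291a and miR-294, which share the seed of miR-295 and come from the same cluster.
mmu-miR-291a-3p: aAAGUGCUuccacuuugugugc
mmu-miR-294-3p: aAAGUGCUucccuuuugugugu
mmu-miR-295-3p: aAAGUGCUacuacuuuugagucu
mmu-miR-16-5p: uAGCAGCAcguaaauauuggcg
The 3′ UTR of the longest coding transcript was searched for the complement of each seed. AGCACTT, the match to the first 3 of these miRNAs, was in none of the 10 keratin 3′ UTRs, against 13.2% of 20710 protein-coding genes. TGCTGCT, the match to miR-16, was in 2 of the 10, against 18.4% of all. These are shown with the 7 matching bases in capitals.
Krt14: agctgctacaTGCTGCTcaggcttagg
Krt80: gggtgctcagTGCTGCTttctctcggg
The keratin 3′ UTRs are short, from 66 nt in Krt18 to 366 nt in Krt5 for 7 of the 10 genes, and 578 nt in Krt20, 1600 nt in Krt80 and 2648 nt in Krt7. The letters alone do not show that a site is used.

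Counts on the 10 keratin genes summed to 29722 in replicate 1 and 7964 in replicate 2. This was 0.0713% of all counts in replicate 1 (95% Wilson interval 0.0705 to 0.0721) and 0.0192% in replicate 2 (0.0187 to 0.0196), or 0.0452% ± 0.0368 over both (SD, n = 2). After scaling, the sum was 3.43-fold higher in replicate 1 (3.35 to 3.52). The size of this difference varied widely among the genes, from 71.8-fold for Krt80 to less than 1.5-fold for Krt19 and Krt14. In bulk RNA, fewer cells that express a keratin and less keratin RNA per cell cannot be told apart.

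**Figure D1:**
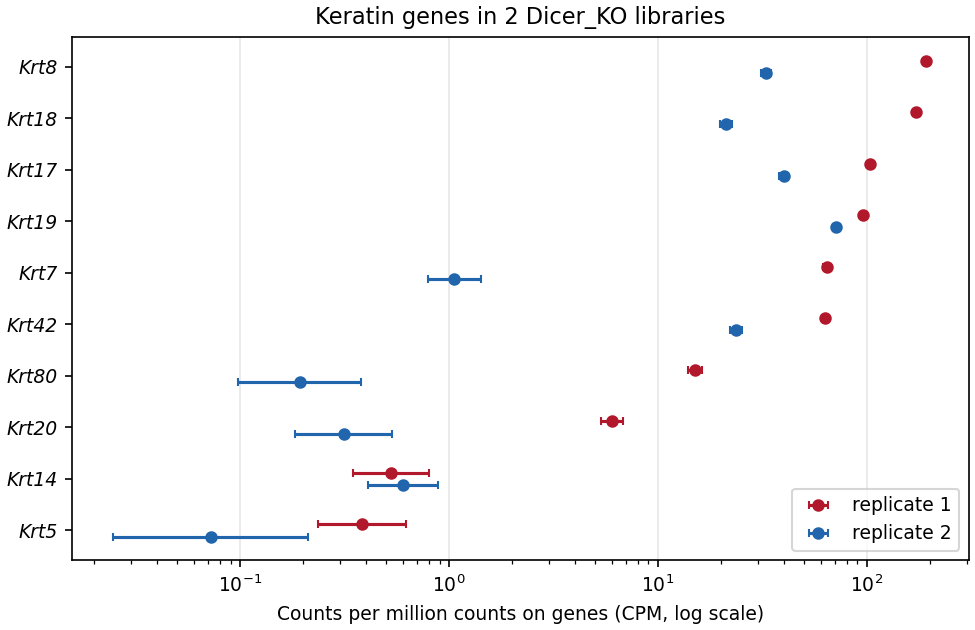
Level of each keratin gene in replicate 1 (red) and replicate 2 (blue) as CPM on a log axis, with 95% Wilson intervals (counting error only). Replicate 1 lies to the right of replicate 2 for every gene except Krt14, whose intervals overlap.

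Krt8 and Krt18, the pair of simple epithelia, had the most keratin counts in replicate 1. Krt8 (ENSMUSG00000049382; chromosome 15 of GRCm38, 101996698 to 102004482, minus strand) had 8004 counts in replicate 1 and 1370 in replicate 2. That is 191.9 CPM (187.7 to 196.1) and 33.0 CPM (31.3 to 34.8). It was 5.37-fold higher in replicate 1 (5.07 to 5.69). Krt18 (ENSMUSG00000023043; 102028180 to 102032027, plus strand), its partner and neighbour, had 7162 and 880 counts, or 171.7 CPM (167.8 to 175.7) and 21.2 CPM (19.8 to 22.6), and was 7.48-fold higher in replicate 1 (6.97 to 8.03). The partners therefore leaned to the same library, although not to the same degree, as their intervals do not overlap. Per length of exon, as RPKM, the ratio of Krt8 to Krt18 was 0.820 in replicate 1 (0.794 to 0.847) and 1.14 in replicate 2 (1.05 to 1.24). Transcripts of the partners were thus within 1.25-fold of each other in each library.

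The count of Krt8 carries an uncertainty of its own. Of its 1909 stretches of 50 bases, 26.9% also occur in the processed pseudogene Krt8-ps, for which no count was listed. How reads with several alignments were counted is not stated, so the effect on the level of Krt8 is not known. Krt18 shared 10 of its 1388 stretches with 2 pseudogenes, Gm17847 (1 and 0 counts) and Gm5200 (not listed). Stretches of Krt19, Krt20 and Krt42 were nearly all their own, with at most 0.234% shared.

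Krt7, the type II partner of Krt19 in simple and glandular epithelia, was among the genes that differed most between the libraries. Krt7 (ENSMUSG00000023039; chromosome 15, 101411043 to 101430313, plus strand) had 2674 counts in replicate 1 and 44 in replicate 2, a 55.8-fold difference (41.5 to 77.0). Krt80 (ENSMUSG00000037185; chromosome 15, 101347444 to 101370162, minus strand), a type II keratin of differentiating epithelia and the neighbour of Krt7, had 625 and 8 counts, a 71.8-fold difference (36.2 to 167). Their log2 ratios of 6.01 for Krt80 and 5.77 for Krt7 were the highest and the next highest of the 17788 genes. This order depends on the pseudocount. With 0.1 in place of 1 they ranked 19 and 20, and with 10 they ranked 2 and 1. Both genes were detected in replicate 2, at 0.192 CPM (0.0975 to 0.380) for Krt80 and 1.06 CPM (0.789 to 1.42) for Krt7.

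Krt20, a type I keratin of intestinal epithelium and urothelium, leaned the same way from a low level. Krt20 (ENSMUSG00000035775; chromosome 11, 99428403 to 99438150, minus strand) had 251 counts in replicate 1 and 13 in replicate 2, a 17.7-fold difference (10.2 to 33.8). Its log2 ratio of 4.06 ranked 48 among the 17788 genes.

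The remaining abundant type I keratins differed less between the libraries. Krt17 (ENSMUSG00000035557; chromosome 11, 100256217 to 100261029, minus strand), a keratin of skin appendages that is induced in injured epidermis, had 4314 counts in replicate 1 and 1664 in replicate 2, a 2.38-fold difference (2.25 to 2.52). Krt42 (ENSMUSG00000053654; 100262882 to 100269871, minus strand), its close relative and neighbour, had 2636 and 983 counts, a 2.46-fold difference (2.29 to 2.65). The intervals of Krt17 and Krt42 overlap, and the RPKM ratio of Krt17 to Krt42 was 1.86 (1.77 to 1.95) in replicate 1 and 1.93 (1.78 to 2.09) in replicate 2. These neighbours therefore kept nearly the same proportion in both libraries, and only 4 of their 50-base stretches are shared.

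Krt19, the smallest keratin, was the most even of the abundant ones. Krt19 (ENSMUSG00000020911; chromosome 11, 100140810 to 100148665, minus strand) had 4018 counts in replicate 1 and 2974 in replicate 2, a 1.24-fold difference (1.18 to 1.30). In replicate 2 it was the keratin with the most counts. As RPKM, Krt19 was 0.435 times Krt18 in replicate 1 (0.418 to 0.452) and 2.62 times Krt18 in replicate 2 (2.43 to 2.83), so the order of these type I chains was reversed between the libraries.

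Krt5 and Krt14, the pair of basal cells in stratified epithelia, were near the lower end of what these libraries can show. Krt14 (ENSMUSG00000045545; chromosome 11, 100203162 to 100207548, minus strand) had 22 counts in replicate 1 and 25 in replicate 2, and the interval of its fold, 0.435 to 1.49, includes equality. Krt5 (ENSMUSG00000061527; chromosome 15, 101707070 to 101712898, minus strand) had 16 and 3 counts, a ratio of 4.90 (1.403 to 26.2). Its mean fell short of 10 counts, so it was the only one of the 10 genes outside the 17788. Krt14 shares 13.9% of its 50-base stretches with Krt16 and Krt17, and Krt5 shares 12.2% with Krt6a, Krt6b and other genes, and Krt6a and Krt6b themselves had 0 counts in both libraries.

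**Figure D2:**
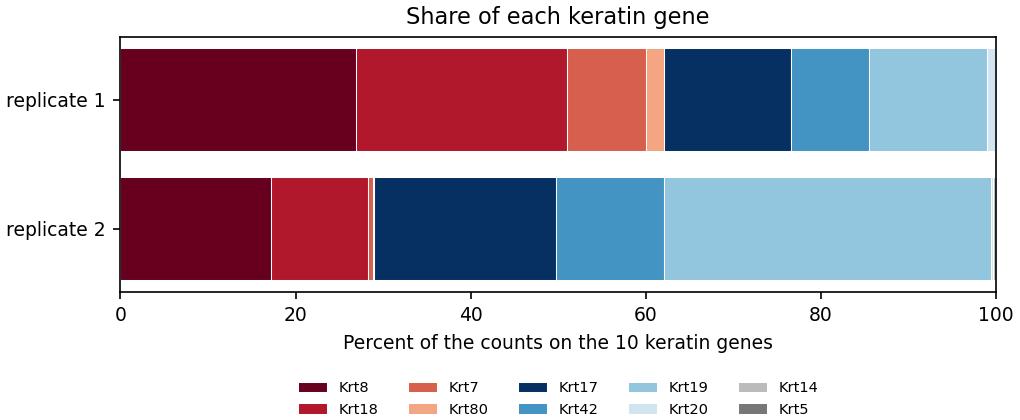
Share of each gene in the counts on the 10 keratin genes, in percent, for replicate 1 (upper bar) and replicate 2 (lower bar); red shades are genes of the chromosome 15 cluster and blue shades those of chromosome 11 (Krt14 and Krt5, in grey, are too small to see). Krt8 and Krt18 make up most of the red part, and Krt19 grows from 13.5% in replicate 1 to 37.3% in replicate 2.

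The make-up of the keratin counts differed accordingly. Krt8 took 26.9% of the counts on the 10 genes in replicate 1 and 17.2% in replicate 2, Krt18 took 24.1% and 11.05%, and Krt19 took 13.5% and 37.3%. The 5 genes of the chromosome 15 cluster held 62.2% of these counts in replicate 1 and 28.9% in replicate 2. Levels between genes were compared per length. In mean RPKM over both libraries the order was Krt18 with 67.1 ± 74.1, Krt8 with 57.4 ± 57.4, Krt17 with 46.2 ± 28.9, Krt19 with 45.3 ± 9.45 and Krt42 with 24.6 ± 15.9 (SD, n = 2). Well below these followed Krt7 with 4.62 ± 6.32, Krt20 with 1.64 ± 2.09, Krt80 with 1.19 ± 1.64, Krt14 with 0.321 ± 0.0298 and Krt5 with 0.104 ± 0.1002 RPKM (SD, n = 2). Neighbours in this order overlapped within 1 SD, except Krt14 and Krt5. In replicate 1 the order from the top was Krt18, Krt8, Krt17, Krt19 and Krt42, and in replicate 2 it was Krt19, Krt17, Krt8, Krt18 and Krt42. At least 1 RPKM in both libraries was reached by these 5 genes, and by 8 genes in replicate 1 taken alone. Exon lengths of Krt7 (7049 nt) and Krt80 (6393 nt) exceed their longest transcripts (4094 and 3919 nt), so their RPKM depend on the length used.

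Type I chains exceeded type II chains at the RNA level in both libraries. The sum of RPKM of the type II genes (Krt7, Krt8, Krt80 and Krt5) was 0.395 times that of the type I genes in replicate 1 and 0.183 times in replicate 2, a mean of 0.289 ± 0.1499 (SD, n = 2). Over all 53 keratin genes the values were 0.395 and 0.180, so no other type II gene made up the difference.

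**Figure D3:**
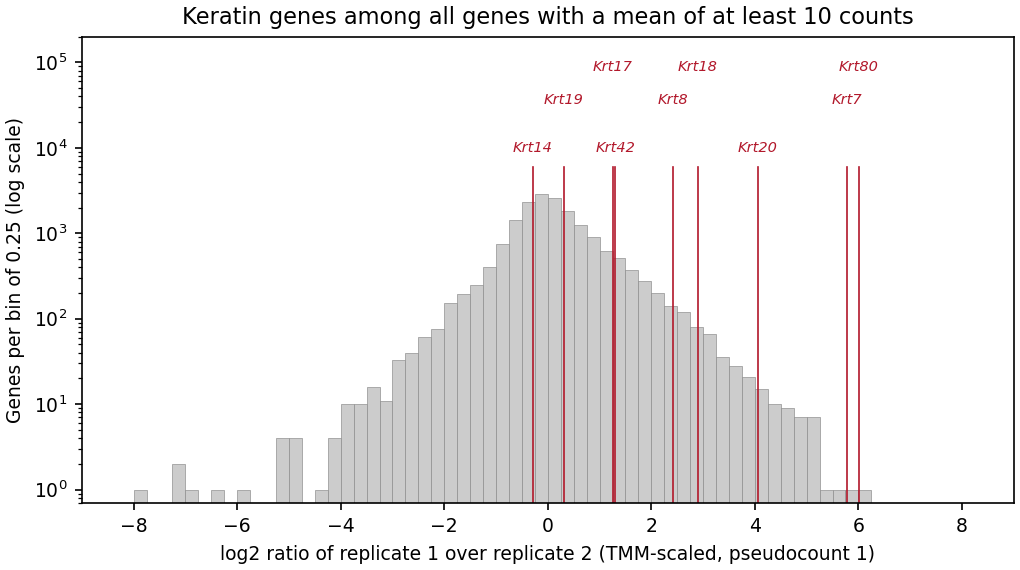
Number of genes (log axis) by log2 ratio of replicate 1 over replicate 2 for the 17788 genes compared, in bins of 0.25, with the 9 keratin genes among them marked by red lines. Krt14 and Krt19 lie near the centre, Krt17 and Krt42 at 1.25 and 1.30, and Krt80 and Krt7 at the right end of the distribution.

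Among the 10 keratin genes, 9 passed the minimum of 10 mean counts. Of these, 7 were more than 2-fold higher in replicate 1, where 14.2% of all 17788 genes were, and 5 were more than 4-fold higher, where 4.17% of all were. None was more than 2-fold higher in replicate 2. The median log2 ratio of the 9 was 2.42, against 0.02 over all genes compared. The set was chosen knowing how several of these genes behaved, so the counts describe the set and do not test it. The ratio was 2.90 for Krt18, which ranked 233 among the 17788 genes, and 2.42 for Krt8, which ranked 445.

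Genes of chromosome 15 were higher in replicate 1 as a whole. The median log2 ratio of the other compared genes of the chromosome was 0.59, whereas the other 18 autosomes had medians from -0.08 to 0.08. With the median of its chromosome subtracted, the log2 ratio was 5.42 for Krt80, 5.18 for Krt7, 2.31 for Krt18 and 1.83 for Krt8. On chromosome 11, where the median was 0.07, it was 3.99 for Krt20, 1.23 for Krt42, 1.18 for Krt17 and 0.24 for Krt19. The 7 genes beyond 2-fold thus all stayed above 1 on this scale.

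Most genes next to Krt8 and Krt18 that encode no keratin were also higher in replicate 1, by less. Within 250 kb of the start of Krt8 there were 9 such protein-coding genes, all compared. Their median log2 ratio was 0.75, close to the 0.59 of chromosome 15 as a whole. Of the 9, 2 were more than 2-fold higher in replicate 1, where 14.2% of all genes compared were. These 2 were Tns2, a focal adhesion protein, with 579 and 161 counts, and Igfbp6, a binding protein of insulin-like growth factors. Igfbp6 had 35 and 0 counts and a log2 ratio of 5.17, above those of Krt8 and Krt18. Eif4b, a translation initiation factor and the nearest of them beyond Krt18, had 63068 and 42200 counts and a log2 ratio of 0.46. Spryd3, Soat2 and Csad had 0.81, 0.80 and 0.75, Itgb7 had 0.36, Zfp740 had 0.06, and Rarg, the retinoic acid receptor gamma, had -0.16. The difference of Krt8 and Krt18 was thus larger than that of 8 of these 9 genes. Around Krt7 the same window, chosen after the values were seen, held 4 compared genes, with log2 ratios of 1.53 for Acvr1b, 1.53 for Grasp, 0.76 for Atg101 and 0.40 for Nr4a1, all far below the 5.77 of Krt7.

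**Figure D4:**
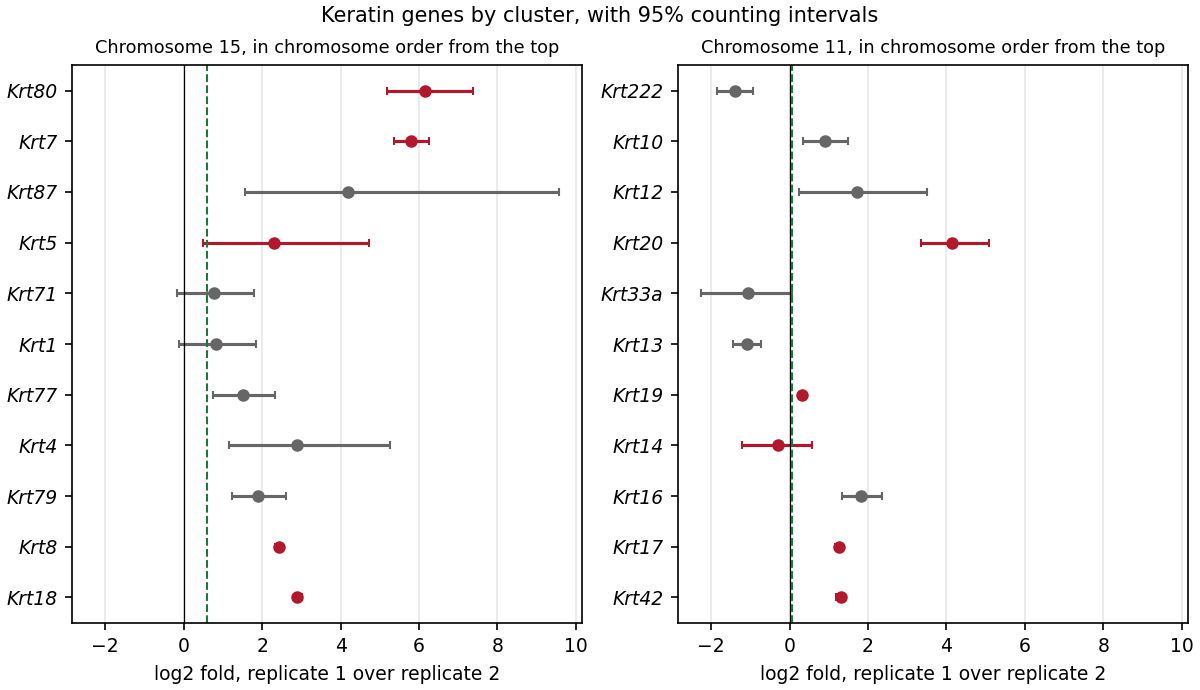
Scaled log2 fold of replicate 1 over replicate 2, without a pseudocount, for Krt5 and the 21 keratin genes compared, in the order of their positions on chromosome 15 (left) and chromosome 11 (right). Red points are the 10 epithelial keratin genes, grey points are other keratins, bars are exact 95% counting intervals, and the green dashed line is the median of the chromosome's other genes. On chromosome 15 every point lies to the right of 0, and on chromosome 11 they lie on both sides.

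The rest of the keratin family held few counts. The other 43 keratin genes summed to 758 counts (replicate 1) and 551 (replicate 2), while the 10 summed to 29722 and 7964, and 11 of them had 0 counts in both libraries. Only 12 reached a mean of 10 counts, of which 6 were more than 2-fold higher in replicate 1 and 2 more than 2-fold higher in replicate 2. Of all genes compared, 14.2% and 7.14% were. On chromosome 15, all 6 compared had a positive log2 ratio, with a median of 1.66, and 4 were more than 2-fold higher in replicate 1. The median of the chromosome itself was 0.59. These 4 keratins included Krt79, with 93 and 23 counts, and Krt77, with 59 and 19. With the chromosome median subtracted, the log2 ratio was 1.26 for Krt79 and 0.88 for Krt77, so Krt77 was no longer beyond 2-fold. Krt87, which lies beside Krt7 but was too low to enter the genes named by rule, had 20 and 1 counts. On chromosome 11, the 6 compared had a median of -0.06, and 3 were higher in each library.

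Genes close together on chromosome 11 differed in direction. Krt16, a keratin of stressed epidermis that lies beside Krt17, had 166 and 43 counts, a 3.55-fold difference (2.52 to 5.08). Krt13, the type I keratin of internal stratified epithelia such as the oesophagus, had 98 and 190 counts, a mean of 1.90 ± 0.863 RPKM (SD, n = 2) that lay above the means of Krt20, Krt80, Krt14 and Krt5, and Krt222, a headless relative, had 56 and 134. Both were thus more than 2-fold higher in replicate 2, with log2 ratios of -1.07 and -1.37. Krt10, of the upper epidermis, had 81 and 40 counts and a log2 ratio of 0.88. On chromosome 15, Krt1, the partner of Krt10, had 29 and 15 counts, and Krt71, of the hair root sheath, had 28 and 15, and the intervals of both included equality. Krt4, the partner of Krt13 in internal epithelia, had 24 and 3 counts, a ratio of 7.35 (2.23 to 38.1), and so did not follow Krt13. Krt12 and Krt33a, also below the level for names, had 18 and 5 counts and 11 and 21 counts.

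Keratin filaments end at desmosomes and hemidesmosomes, where plaque proteins and plakins anchor them. Of 13 such genes, 5 were more than 2-fold higher in replicate 1 and 0 more than 2-fold higher in replicate 2. The shares over all genes compared were 14.2% and 7.14%. The median log2 ratio of the 13 was 0.49. Pkp1, a plakophilin of desmosomes in stratified epithelia, had 767 and 33 counts, a 21.3-fold difference (15.1 to 31.2). Ppl, the plakin periplakin, had 2873 and 351 counts, a 7.52-fold difference (6.73 to 8.43). Dsp, the desmoplakin that binds keratin filaments directly, was singled out after its values were seen, with 14380 and 2382 counts, a 5.55-fold difference (5.31 to 5.79). This lay close to the 5.37-fold difference of Krt8, but only without centring by chromosome. With the chromosome median subtracted, the log2 ratio was 2.53 for Dsp, on chromosome 13, and 1.83 for Krt8. The abundant Jup and Itga6 were nearly even, with log2 ratios of 0.23 and 0.32, and so were Dst at 0.08 and Pkp4 at -0.27.

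**Figure D5:**
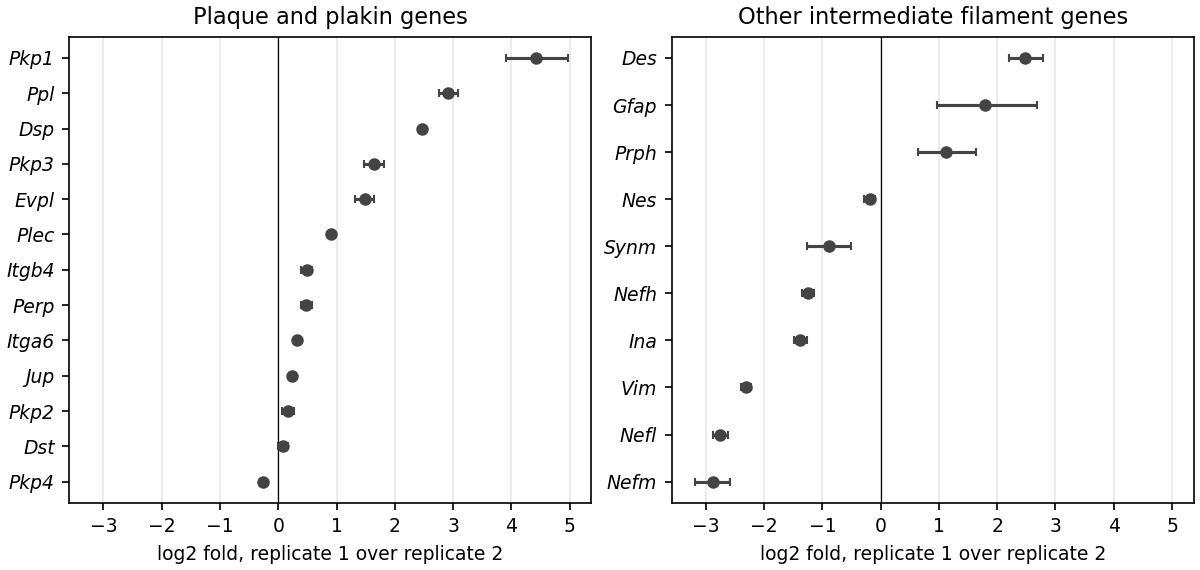
Scaled log2 fold of replicate 1 over replicate 2, without a pseudocount, for 13 plaque and plakin genes (left) and 10 other cytoplasmic intermediate filament genes (right), with exact 95% counting intervals. Plaque and plakin genes reach from -0.27 to above 4, while Vim and the neurofilament genes lie below -1.

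Intermediate filament genes of other tissues leaned mostly the other way. Of 10 such genes, 3 were more than 2-fold higher in replicate 1 and 5 more than 2-fold higher in replicate 2. The shares over all genes compared were 14.2% and 7.14%. The median log2 ratio of the 10 was -1.06. Vim, the vimentin of mesenchymal cells and the most abundant of them, had 1520 counts in replicate 1 and 6933 in replicate 2, a log2 ratio of -2.31. The neurofilament genes Nefl, with 619 and 3821 counts, and Nefm, with 110 and 742, had -2.75 and -2.86. Nes, the nestin of neural progenitors, was close to even, with 1771 and 1852 counts. Des, the desmin of muscle, went with the keratins, with 689 and 113 counts and a log2 ratio of 2.48. So did Gfap, with 60 and 16 counts, and Prph, on chromosome 15, with 119 and 50, at log2 ratios of 1.73 and 1.11. The sum of the 10 keratin genes exceeded that of Vim in both libraries, by 29722 to 1520 counts in replicate 1 and by 7964 to 6933 in replicate 2. These counts are not divided by length, and Vim has 4743 nt of exon. As RPKM, the keratin sum was 387.0 against 7.68 for Vim in replicate 1, and 110.1 against 35.2 in replicate 2.

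Regulators of epithelial genes were mostly higher in replicate 1, with 12 of 14 log2 ratios above 0. Over all genes compared, 9129 of 17788 ratios were above 0. More than 2-fold higher were 14.2% of all genes in replicate 1 and 7.14% in replicate 2. Of these 14 transcription and splicing factors, 5 were more than 2-fold higher in replicate 1, 0 more than 2-fold higher in replicate 2, and 9 within 2-fold, with a median log2 ratio of 0.77. Tfap2a and Tfap2c, factors of the AP-2 family that act in trophectoderm and surface ectoderm, had 192 and 34 counts and 3742 and 1311 counts, log2 ratios of 2.34 and 1.39. Gata3, Ehf and Ovol1, the others beyond 2-fold, had 1.71, 1.34 and 1.23, and are named after their values were seen. Tead4, needed for trophectoderm, and Grhl2, a regulator of epithelial junctions, were even, with log2 ratios of -0.12 and -0.11. Grhl2 lies on chromosome 15, and with the median of that chromosome subtracted its log2 ratio was -0.70. The abundant Elf3 and Esrp1 had 0.68 and 0.36.

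Markers of cell types that could contribute keratin RNA were read in the same way. Their counts stand beside 14.2% of all genes compared more than 2-fold higher in replicate 1 and 7.14% in replicate 2. Of the 10 trophoblast markers, 7 were compared and 5 were more than 2-fold higher in replicate 1, with Hand1 at 229 and 15 counts and Gata2 at 371 and 107. The most abundant, Plet1 (3755 and 3066 counts), was nearly even, as was Ascl2 (106 and 103), and Eomes had 334 and 151. Cdx2, which defines trophectoderm, had 6 and 1 counts, Prl3d1 had 2 and 0, and Tpbpa had 0 in both. Summed CPM of the list were 117.7 and 83.4. Of the 10 markers of stratified epidermis, 6 were compared, 5 were more than 2-fold higher in replicate 1 and 1 in replicate 2, with summed CPM of 124.9 and 44.7. These included Krtdap, with 506 and 80 counts, Dmkn, with 195 and 38, Sfn, with 2631 and 1024, and Col17a1, with 948 and 434. Sprr1a, too low to be compared, had 18 and 1 counts. Sbsn, also among the 5 higher in replicate 1, had 904 and 264. Sbsn, Dmkn and Krtdap lie close together on chromosome 7, between 30751471 and 30791097, so they do not stand for separate loci. Ivl and Flg of this list had 0 counts in both libraries, and Lor, the one higher in replicate 2, had 6 and 16. The part of either cell type in the keratin counts was not tested.

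The remaining lists lay mostly within 2-fold, as did 13985 of all 17788 genes compared. Of the 10 primitive endoderm markers, 8 were compared and 1, Dab2 (52 and 17 counts), was more than 2-fold higher in replicate 1. Dab2 lies on chromosome 15, and subtracting the median of that chromosome brought its log2 ratio from 1.44 to 0.85. Gata4 (586 and 318 counts), Col4a1 (1861 and 1312), Sparc (17111 and 16212) and Lama1 (1195 and 1672) lay within 2-fold. Summed CPM of the primitive endoderm list were 502.1 and 472.7. Of the 10 fibroblast markers, 3 were compared, among them Thy1 (823 and 621 counts) and Twist1 (189 and 160), and all 3 lay within 2-fold, with summed CPM of 25.0 and 19.8 and at most 20 counts of any of their collagens (Postn had 0 in both libraries). Of the 10 pluripotency markers, 9 lay within 2-fold. The exception was Dppa5a, which was also the most abundant, with 199860 and 84835 counts and a log2 ratio of 1.11, and summed CPM of the list were 10125 and 6517. Nanog had a log2 ratio of 0.74 and Zfp42 one of -0.32. Cells of both libraries thus carried high pluripotency RNA beside the keratin RNA, and whether the same cells did is not visible in bulk counts.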

How the data were processed

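Gene counts of 2 RNA sequencing libraries of Dicer_KO mESCs were analysed. Reads had been trimmed with Trimmomatic and mapped to mm10 by STAR (version 2.4.2a), and featureCounts (version 1.4.5-p1) had assigned them to Ensembl gene models, leaving out those in regions where genes overlap. The counts were deposited by the authors as whole numbers, with no normalization. The treatment of reads with several alignments and the strand setting of the counting are not given in the sources used here. Annotated antisense exons overlap 5.16% of Krt8, 4.11% of Krt80, 5.87% of Krt5 and 1.09% of Krt7 exon bases. They belong to Gm36026, Gm35853, Gm44323 and Gm671, in this order. No count was listed for any of these antisense genes, so they were not among the genes counted.

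Symbols, positions and exon lengths came from GENCODE M21 (GRCm38), which held 42462 of the 43629 gene identifiers. CPM used total counts. Replicate 2 was scaled to replicate 1 by TMM (edgeR version 4.0.16, R 4.3.3), and log2 ratios used a pseudocount of 1 and, for counts of genes, a minimum mean of 10 counts. Folds are given without a pseudocount, with exact conditional binomial intervals (scipy 1.17.1). RPKM used the union of annotated exons. The scaled log2 ratio was first tested on simulated counts. Since there is 1 group and no control library, no test between groups was made. Promoters and miRNAs came from RefSeq (GRCm38.p6).

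The keratin genes and all lists were chosen with earlier results of these data known. Named genes were Dicer1, the 10 keratins, other keratins whose mean count reached 20, genes within 250 kb of Krt8, pseudogenes sharing 50-base stretches, and in each list the 2 highest and 2 lowest ratios and the 2 highest means among genes whose mean count reached 100; further names were chosen after their values were seen. Alternatives were other scalings (total counts, raw counts, DESeq2 version 1.42.0), pseudocounts, filters and gene lengths, centring by chromosome, and leaving out each replicate.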

Additional observations from a re-analysis of the deposited data

How the results depend on the processing

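No paired analysis was possible because Dicer_KO is the one group of the series. The 7 keratin genes more than 2-fold higher in replicate 1 numbered 7 with total counts, raw counts, DESeq2 size factors, a pseudocount of 0.1 or 10, subtraction of the chromosome median or a minimum mean of 100 counts, and 8 with no filter on low counts, which adds Krt5. Some of these alternatives shift all ratios alike and could hardly change the number. Genes at 1 RPKM or more numbered 5 in both libraries together, and between 5 and 8 with each replicate left out in turn. The ratio of Krt8 to Krt18, 0.981 as a mean over both libraries, was 1.34 when counts were not divided by length, because the genes differ in length. Its values with each replicate left out lay between 0.820 and 1.14, so which of these genes was higher depends on both choices. In the same way, the type II over type I ratio lay between 0.183 and 0.395, and the keratin share of all counts between 0.0192% and 0.0713%. With 2 libraries, leaving one out moves a mean by less than their SD whatever the data. Scaling by total counts moved the median log2 ratio of all genes compared from 0.02 to 0.14 and the ratio of Krt19 from 0.31 to 0.43. Of 145 values under alternatives, 120 moved by less than a limit and 25 moved by more. The limit was the spread or counting error, but a fixed fold change for numbers of genes, which is a looser rule. The log2 ratios of the 10 genes each kept their sign. Genes more than 2-fold higher in replicate 1 numbered 2533 of 17788, 1292 of the 13005 whose mean count reached 100, and 4050 of all 43629, and those more than 4-fold higher numbered 741, 279 and 1158. At 8, 13 and 3 counts in replicate 2, the levels of Krt80, Krt20 and Krt5 there are limited by depth.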
